A study of Mus musculus with 12 samples.

Results

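The genes described here are 33 mouse genes of ribosome biogenesis, chosen by name as nucleolar processing factors and RNA polymerase I subunits. They are 33 of the 55536 genes counted, and all 33 passed the filter on low counts in every comparison. RNA was sequenced from 11 tumours and 1 skeletal muscle, without drug treatment. The 5 translocation tumours carried the genotype HprtCre; Ewsr1-loxP; Atf1-loxP, in which Cre from the Hprt locus can join the mouse Ewsr1 and Atf1 genes. The 6 Rosa26 tumours carried Rosa26-LSL-EWSR1-ATF1, a fusion transgene that Cre switches on, with no Cre line named. EWSR1-ATF1 is the fusion of clear cell sarcoma. The muscle was labelled WT, and the leading number of its title is also that of translocation tumour 1. The labels give no age and do not say whether the samples came from separate animals. The title of translocation tumour 5 is that of translocation tumour 2 with a letter added, and the titles of Rosa26 tumours 5 and 6 differ in the last digit.

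Ribosomes are built in the nucleolus. RNA polymerase I copies the ribosomal DNA into a long precursor, small nucleolar ribonucleoproteins (snoRNPs) methylate and pseudouridylate it, and the small subunit processome and a chain of large subunit factors cut, fold and pack it with ribosomal proteins. Growing cells make many ribosomes, and many genes of this pathway are known targets of the transcription factor MYC, which binds the E-box CACGTG as a dimer with MAX. By role the genes were 6 of snoRNPs and precursor modification, 2 of RNA polymerase I, 7 of the small subunit processome, 11 of large subunit assembly, 4 nucleolar proteins of several functions, and 3 of nucleotide supply and mitochondrial transcription (Cad, Dctpp1 and Tfb2m).

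Promoters were read because most of the genes were high together in 1 tumour and because the pathway is known for E-boxes. RefSeq promoter windows (GRCm38.p6, 250 bases before the start to 50 after) were matched for 29 of the 33 genes, without Fbl, Bop1, Npm1 and Rrp12. CACGTG, which reads the same on both strands, lay in 7 of the 29 windows (24.1%), against 8.09% of 27025 genes with a window and 11.3% of the 11508 of them that were tested. The sites are shown with up to 10 bases on each side and the motif in capitals, on the gene's strand.
Nop2 (large subunit, chr6:125131813-125131838): gtccctggatCACGTGtgttccggtg
Imp4 (small subunit, chr1:34439698-34439723): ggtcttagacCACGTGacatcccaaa
Pes1 (large subunit, chr11:3963967-3963992): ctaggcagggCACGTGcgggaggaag
Grwd1 (large subunit, chr7:45830740-45830765): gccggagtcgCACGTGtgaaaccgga
Utp20 (small subunit, chr10:88826765-88826787): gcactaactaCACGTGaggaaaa
Wdr43 (small subunit, chr17:71616222-71616247): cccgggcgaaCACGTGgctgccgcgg
Mybbp1a (nucleolar, chr11:72441357-72441376): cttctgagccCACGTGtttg
Within the 250 bases before the start alone, the E-box was found in 2 of 29 genes, Nop2 and Imp4 (6.90%), against 6.86% of all genes and 9.57% of tested genes, so the larger share rests on sites within 50 bases after the start. The cAMP response element TGACGTCA, the sequence that ATF1 and its relatives are known to bind, lay in 2 of 29 windows (6.90%, against 2.03% of all genes and 3.44% of tested genes), also read on both strands.
Noc4l (small subunit, chr5:110653397-110653424): gaggctcgggTGACGTCAcgggcgcgac
Ppan (large subunit, chr9:20888130-20888157): gaccgttggaTGACGTCActggccggca
Its 5-base part TGACG, read on both strands and contained in TGACGTCA, lay in 14 of 29 windows (48.3%), against 23.0% of all genes and 33.9% of tested genes. A match is a description of letters and not of binding.
Nop56 and Dctpp1, which in translocation tumour 5 were at 6.34 and 6.57 times the highest other tumour, held neither CACGTG nor TGACGTCA in their windows. The 250 bases before their starts are shown for comparison, without capitals because no searched motif of 6 or more letters lies in them.
Nop56 (chr2:130274162-130274411, plus strand): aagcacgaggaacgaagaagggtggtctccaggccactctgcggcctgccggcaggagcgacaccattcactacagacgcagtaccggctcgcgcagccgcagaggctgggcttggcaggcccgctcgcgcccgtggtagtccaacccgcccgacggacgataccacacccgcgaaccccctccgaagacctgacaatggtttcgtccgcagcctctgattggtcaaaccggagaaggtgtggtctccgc
Dctpp1 (chr7:127260668-127260917, minus strand): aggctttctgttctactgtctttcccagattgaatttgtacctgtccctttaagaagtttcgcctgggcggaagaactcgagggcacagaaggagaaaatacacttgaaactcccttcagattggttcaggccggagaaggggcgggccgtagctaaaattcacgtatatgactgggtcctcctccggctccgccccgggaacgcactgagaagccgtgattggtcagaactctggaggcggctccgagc

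Library totals spanned 2.96 to 21.2 M counts for the translocation group and 6.82 to 21.5 M for the Rosa26 group, and the muscle had 25.04 M. Ribosomal repeat genes held 37.8% of the translocation tumour 2 library and 30.0% of the Rosa26 tumour 4 library, and 0.758% to 7.38% of each other library, which lowers any share of raw counts in those libraries. Skeletal muscle genes made up 10.04% of the library of Rosa26 tumour 1. Levels below are CPM, a gene's count relative to its library's total, scaled over the 12 libraries by TMM, edgeR's correction for library composition. The TMM factor was 0.409 for the muscle and 0.771 to 1.26 for the tumours, so levels in muscle against tumour depend on the scaling and are read against the median gene. The smallest count of any of the 33 genes was 11, for Noc4l in translocation tumour 2 (exact Poisson 95% interval 5.49 to 19.7, counting error only). Levels were compared between genes only as TPM, counts per kilobase of exon brought to the same total in each library. Npm1 was the highest of the genes, with a median TPM of 162 over the 10 tumours other than translocation tumour 5. Pa2g4 (34.6) and Mybbp1a (31.2) followed, and Wdr12 (2.86) was the lowest. The annotated exons of some genes include long introns kept in rare transcripts, which lowers their values per length.

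Together the 33 genes took 0.641% of the counts of translocation tumour 5. Their share was 0.128%, 0.0705%, 0.144% and 0.125% in translocation tumours 1 to 4, 0.0866% to 0.176% in the Rosa26 tumours and 0.115% in the muscle. With ribosomal repeat and skeletal muscle genes taken out of the totals, the share was 0.666% in translocation tumour 5, 0.114% to 0.180% in each other tumour and 0.151% in muscle. Of the counts of the 33 genes, Npm1 alone held 32.4% in translocation tumour 5. It held 8.76% to 20.1% in the other tumours and 13.2% in muscle. Summed TMM-scaled levels were 6330 CPM in translocation tumour 5, 1067 ± 108 CPM over translocation tumours 1 to 4 (SD, n = 4), 1278 ± 214 CPM over the Rosa26 group (SD, n = 6) and 2813 CPM in muscle. Translocation tumour 5 thus stood apart from both tumour groups, while 3 of the other 4 translocation tumours lay within 1 SD of the Rosa26 mean and translocation tumour 2, at 914.6 CPM, lay below that. Each library is a bulk measure of its sample, so a larger part of cells of a kind and more RNA per cell cannot be told apart.

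**Figure D1:**
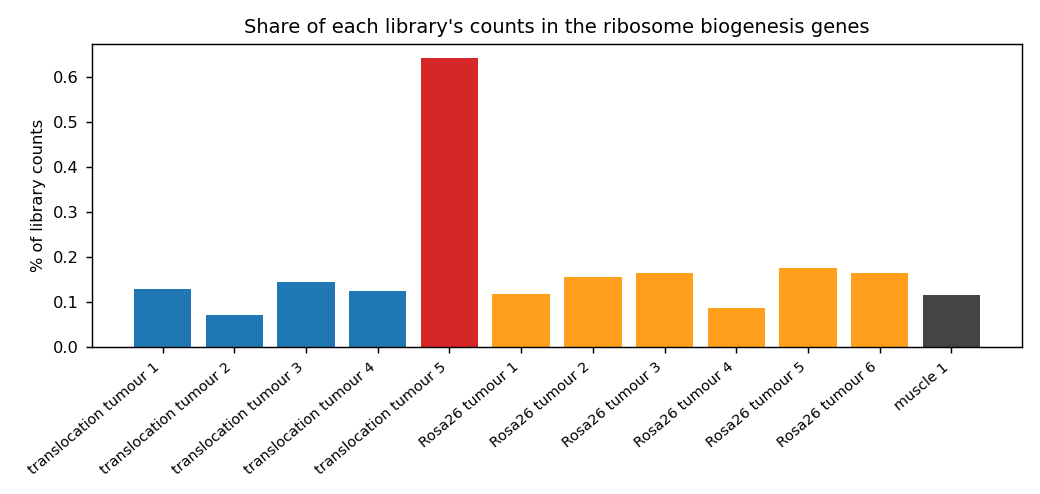
Bars give the percentage of each library's total counts that fell on the 33 ribosome biogenesis genes, for translocation tumours 1 to 5, Rosa26 tumours 1 to 6 and the muscle. Translocation tumour 5 is at 0.641% and every other library is between 0.0705% and 0.176%.

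Translocation tumour 5 was the highest of the 11 tumours for 30 of the 33 genes, against 28.4% of the 17021 genes tested. It lay at least 2-fold above the highest other tumour for 23 of the 33, against 11.4% of all genes. The median ratio to the highest other tumour was 2.97 over the 33 genes and 0.460 over all genes, and the ratio to the mean of translocation tumours 1 to 4 was 4.503 and 0.863. As 1 library, it carries no test of its own, and the share of these genes in it was among the results known when the genes were chosen.

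**Figure D2:**
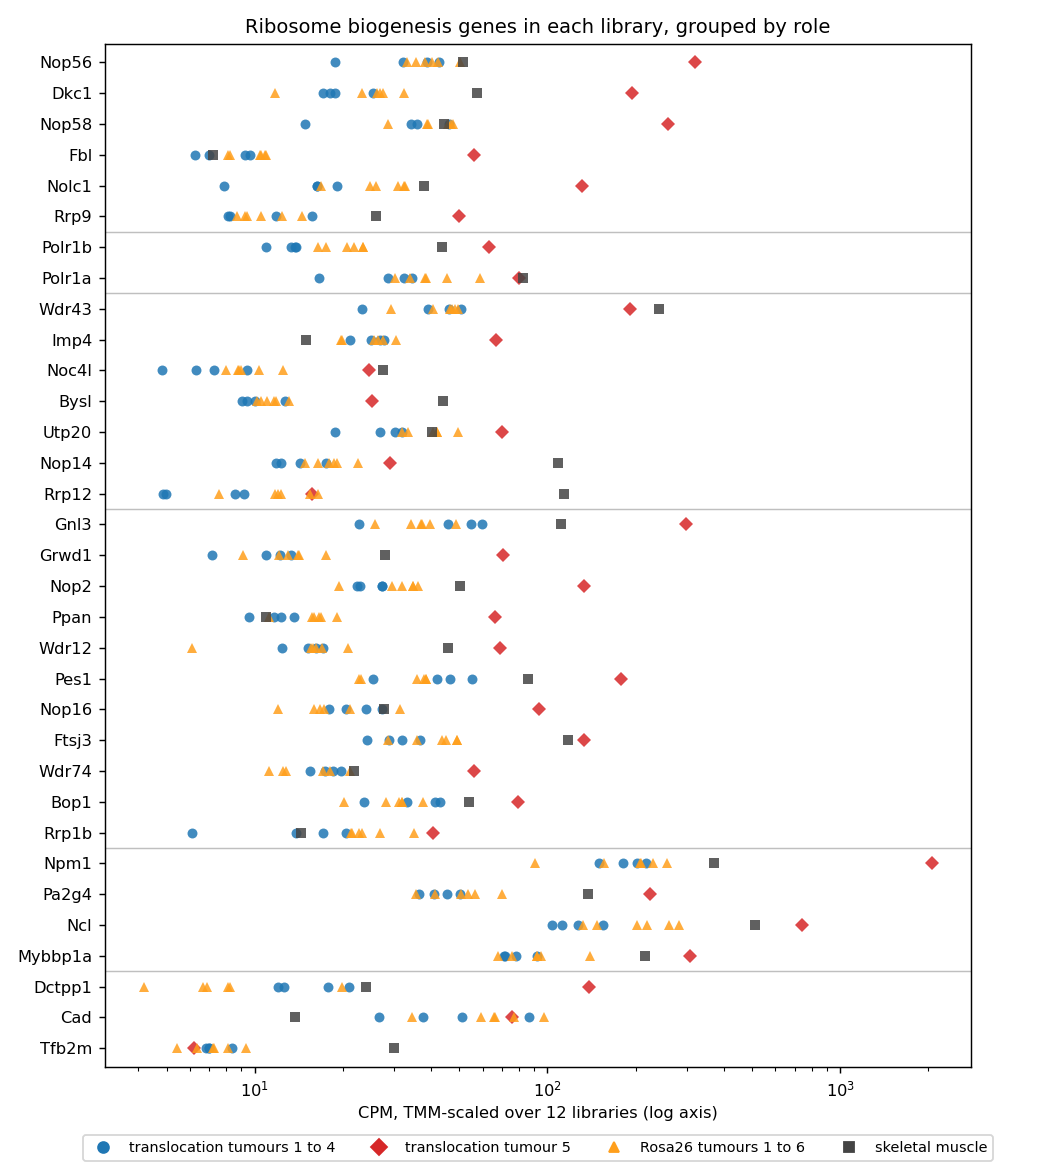
Each row is a gene, grouped by role with grey lines between the 6 roles and ordered by the ratio of translocation tumour 5 to the highest other tumour. The log axis is TMM-scaled CPM, with 1 point per library. The red diamond of translocation tumour 5 lies to the right of all other tumours in 30 of 33 rows, and in the rows of Rrp12, Cad and Tfb2m it does not.

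The snoRNP genes stood highest. All 6 were at 3.18 times the next tumour or more, with a median of 5.29. Nop56 (ENSMUSG00000027405, chr2:130274430-130279313, GRCm38), a core protein of the methylating box C/D snoRNPs, was at 38.9, 18.8, 42.6, 32.0 and 319 CPM in translocation tumours 1 to 5, and the Rosa26 tumours ran from 33.2 to 50.4 with a median of 39.2. Its partner Nop58 (chr1:59684971-59719044) was at 34.1, 14.9, 46.1, 35.8 and 258 CPM, with 28.5 to 47.5 and a median of 42.3 in the Rosa26 tumours. Fbl, fibrillarin (chr7:28169710-28179269), is the methyltransferase of the same particle. It was at 7.005, 9.63, 9.26, 6.27 and 56.1 CPM, with 8.09 to 10.9 and a median of 10.5 in the Rosa26 tumours. In each of these genes tumour 5 was the only translocation tumour above the Rosa26 range, and translocation tumours 1 to 4 lay within or below it. Dkc1, the pseudouridine synthase of the box H/ACA snoRNPs, reached 194 CPM in translocation tumour 5 against 11.7 to 32.4 CPM in the other 10 tumours. Nolc1, a nucleolar chaperone of snoRNPs, reached 131 CPM against 7.88 to 32.5, and Rrp9, a U3 snoRNP protein, 49.8 CPM against 8.14 to 15.6.

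The catalytic subunits of RNA polymerase I differed in how far translocation tumour 5 stood above the rest. Polr1b, the second largest subunit (chr2:129100995-129126594), was at 13.7, 10.9, 13.3, 13.8 and 63.2 CPM in translocation tumours 1 to 5, and at 16.4 to 23.5 with a median of 21.2 in the Rosa26 tumours. Polr1a, the largest subunit (chr6:71909053-71984935), was at 32.2, 16.6, 34.5, 28.6 and 79.8 CPM, with 30.1 to 58.6 and a median of 38.4 in the Rosa26 tumours. Tumour 5 was 2.69 times the highest other tumour for Polr1b and 1.36 times for Polr1a.

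The 7 small subunit genes had a median ratio of 1.92, and 2 of them passed 2-fold. Wdr43, a processome protein of the group also needed to transcribe ribosomal DNA (chr17:71615895-71659031), was at 39.1, 23.2, 50.8, 46.2 and 191 CPM in translocation tumours 1 to 5, with 29.2 to 49.4 and a median of 46.7 in the Rosa26 tumours. Imp4, a protein of the U3 particle (chr1:34439851-34449356), was at 21.1, 24.96, 27.6, 26.7 and 67.0 CPM, with 19.8 to 30.5 and a median of 25.9. Nop14, a U3-associated factor (chr5:34638536-34660148), was at 17.5, 12.3, 14.2, 11.8 and 29.1 CPM, with 14.9 to 22.5 and a median of 18.3. Wdr43 was at 3.76 times and Nop14 at 1.29 times the highest other tumour. Rrp12, an export factor of pre-ribosomal particles (chr19:41862851-41896173), was at 8.54, 9.19, 4.99, 4.87 and 15.7 CPM, with 7.55 to 16.4 and a median of 12.2, so tumour 5 lay inside the Rosa26 range. Bysl, Noc4l and Utp20 were at 1.92, 1.97 and 1.41 times the highest other tumour.

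Large subunit genes followed the snoRNP genes, with a median ratio of 3.24 and 9 of 11 past 2-fold. Gnl3, the GTP-binding protein nucleostemin (chr14:31012433-31019152), was at 60.0, 22.8, 45.6, 54.7 and 298 CPM in translocation tumours 1 to 5, with 25.7 to 48.5 and a median of 37.1 in the Rosa26 tumours. Ppan, a large subunit maturation factor (chr9:20888175-20892178), was at 11.6, 13.6, 12.3, 9.59 and 66.2 CPM, with 11.2 to 19.1 and a median of 16.3. Rrp1b (chr17:32036100-32062865), a relative of the yeast processing factor Rrp1, was at 20.5, 6.13, 13.8, 17.0 and 40.6 CPM, with 21.3 to 34.99 and a median of 23.0. Gnl3 and Ppan were thus at 4.96 and 3.47 times the next tumour, and Rrp1b at 1.16 times. The 3 proteins of the PeBoW complex, which is needed to process the large subunit precursor, had ratios of 3.24 (Pes1), 1.84 (Bop1) and 3.30 (Wdr12). The other 5 were Grwd1 (4.03), the methyltransferase Nop2 (3.69), Nop16 (2.97), Ftsj3 (2.72) and Wdr74 (2.66).

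All 4 nucleolar proteins of several functions passed 2-fold. Npm1, the nucleolar chaperone nucleophosmin (chr11:33152287-33163206), was at 180.5, 149.7, 201.7, 216.2 and 2050.4 CPM in translocation tumours 1 to 5, with 90.5 to 255 and a median of 208 in the Rosa26 tumours. At 8.04 times the highest other tumour, it had the largest ratio of the 33 genes. Npm1 has processed pseudogenes elsewhere in the genome, and reads that match both were handled in a way not given in the sources used here. Ncl, nucleolin (chr1:86344719-86359400), was at 127, 103, 154, 112 and 739 CPM, with 132 to 281 and a median of 209.9 in the Rosa26 tumours. Pa2g4, an RNA-binding growth regulator, and Mybbp1a, a nucleolar regulator of ribosomal RNA synthesis, were at 3.20 and 2.19 times the highest other tumour.

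The last 3 genes, which are not processing factors, differed from each other. Dctpp1, a pyrophosphatase that clears deoxycytidine nucleotides (chr7:127256959-127260709), was at 17.8, 21.0, 12.6, 12.02 and 138 CPM in translocation tumours 1 to 5, with 4.20 to 19.8 and a median of 7.48 in the Rosa26 tumours. Cad, the enzyme that starts pyrimidine synthesis (chr5:31054780-31078479), was at 37.6, 86.3, 26.5, 50.9 and 75.8 CPM, with 34.5 to 97.3 and a median of 65.8, so tumour 5 lay inside both ranges. Tfb2m, a mitochondrial transcription factor (chr1:179528055-179546267), was at 7.005, 7.01, 6.82, 8.34 and 6.18 CPM, with 5.42 to 9.31 and a median of 7.23. Tfb2m was the steadiest of the 3, and tumour 5 ranked 10 of 11 for it.

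Among the other 10 tumours, the ratio of the highest to the lowest had a median of 2.45 over the 33 genes, against 4.59 over all genes, and ran from 1.45 (Bysl) to 5.71 (Rrp1b). Rosa26 tumour 2 was the highest of the 10 for 11 genes and Rosa26 tumour 5 for 7. Translocation tumour 2, the shallowest library, was the lowest for 11, and translocation tumour 4 and Rosa26 tumour 1 for 7 each. Rosa26 tumour 4 was the highest for 6 genes and the lowest for 6 others. The depth and the ribosomal repeat share of translocation tumour 2 and Rosa26 tumour 4 move with these extremes, and their part was not tested.

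The rest of the pathway was read from 5 lists of other genes (RNA polymerase I transcription, small subunit processing, large subunit assembly, snoRNPs with RNase MRP, and the exosome). Translocation tumour 5 was the highest tumour for 142 of 157 tested genes, and at least 2-fold above the next for 81, with a median ratio of 2.03. By list the median was lowest for transcription (1.46) and highest for snoRNPs (2.33). In the list of nucleotide supply, tumour 5 was the highest for 15 of 19 genes, with a median of 2.10. Paics, an enzyme of purine synthesis, reached 742 CPM in it against 45.1 to 175 in the other 10 tumours.

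Other measured features moved with these genes in translocation tumour 5. Mitotic genes summed to 2324 CPM there, 143 to 311 CPM in translocation tumours 1 to 4, 218 to 449.7 CPM across the Rosa26 group and 34.4 CPM in muscle. All 14 mitotic genes were highest in tumour 5, with a median ratio of 7.17 to the highest other tumour. Myc was at 21.2, 21.9, 8.93, 9.28 and 320 CPM in translocation tumours 1 to 5, 19.9 to 51.6 CPM across the Rosa26 group and 12.5 CPM in muscle. Mycn was at 1.15, 1.31, 0.162, 0.155 and 0.093 CPM in translocation tumours 1 to 5 and at 0.245 to 3 CPM in the Rosa26 group. Mycl was at 35.1 CPM in tumour 5 and at 0 to 4.20 CPM in the other 10. Over the 12 genes of the MYC network, which includes partners and antagonists of MYC, tumour 5 was the highest for 5, with a median ratio of 0.851. The part of mitotic genes or of Myc in the levels of the 33 genes was not tested.

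**Figure D3:**
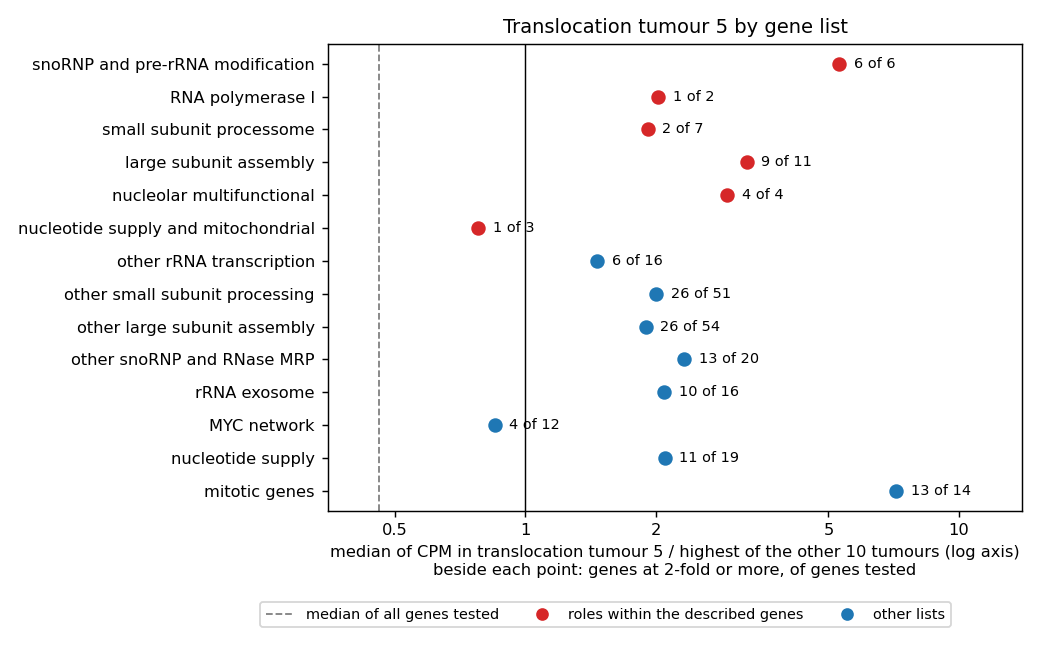
Points give, for each list, the median over its genes of the level in translocation tumour 5 divided by the highest of the other 10 tumours, on a log axis, with the number of genes at 2-fold or more beside each point. Red points are the 6 roles of the described genes, blue points are other lists, and the dashed line is the median of all genes, 0.460. The snoRNP genes are at 5.29 and the mitotic genes at 7.17.

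Markers of fibroblasts, macrophages and lymphocytes were below both tumour groups in the same library, and those of other cell types were not. The 8 fibroblast genes summed to 252 CPM in translocation tumour 5, against 1948 to 22286 CPM in translocation tumours 1 to 4 and 5508 to 98499 CPM in the Rosa26 tumours. The 10 macrophage genes summed to 611 CPM, against 1198 to 3505 CPM and 933 to 2683 CPM. The 10 T and NK cell genes summed to 4.70 CPM, with Cd3d and Trac at 0, and the 8 B and plasma cell genes to 2.19 CPM, with Mzb1 and Ms4a1 at 0. Endothelial genes summed to 337 CPM (269 to 767 CPM in translocation tumours 1 to 4, 326 to 680 CPM across the Rosa26 group), and neutrophil genes to 13.5 CPM (2.72 to 88.3 CPM and 0.175 to 26.1 CPM). Erythroid genes, at 151 CPM, were below translocation tumours 1 to 4 (294 to 11379 CPM) and inside the Rosa26 range (2.62 to 1004 CPM), and skeletal muscle genes, at 680 CPM, were inside both (22.3 to 7434 CPM and 17.1 to 84672 CPM). The 8 melanocyte genes summed to 464 CPM in tumour 5, with Tyr, Tyrp1, Slc45a2 and Mlana at 0, against 9.70 to 54.9 CPM in the other 10 tumours. The part of cell makeup in the levels of the 33 genes was not tested.

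The title of the series sets the translocation tumours against the Rosa26 tumours. No gene of the 33 passed an adjusted p of 0.05 in that comparison (edgeR's quasi-likelihood test, Benjamini-Hochberg), where 2.7% of all genes did. DESeq2 and limma voom also called none, though DESeq2 gave no adjusted p for 15 of the 33. At an unadjusted p under 0.05 there were 5, a share below the 24.8% of all genes. Of the 33 log2 fold changes, 26 were above 0, with a median of 0.59 against 0.07 for all genes. With limma voom on the same 11 tumours, 10 of 33 were above 0 and the median was -0.20. The values ran from -0.49 ± 0.36 (SE) for Rrp12 to 2.21 ± 0.68 for Dctpp1, whose adjusted p was 0.0836. After Dctpp1 came Npm1 at 1.59 ± 0.69 and Gnl3 at 1.42 ± 0.55, and at the other end Rrp1b at -0.30 ± 0.39 and Cad at -0.22 ± 0.35. For none of the 33 did the groups stand apart without overlap (5.18% of all genes).

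Without translocation tumour 5 the median of the 33 log2 fold changes turned below 0. Again 0 of 33 genes passed in edgeR's test (4.27% of all genes), and 6 had an unadjusted p under 0.05 (23.2% of all genes). Now 22 of 33 log2 fold changes were below 0, with a median of -0.26 against -0.00 for all genes and a range from -0.84 ± 0.31 (Rrp12) to 0.85 ± 0.40 (Dctpp1). RNA polymerase I and the small subunit processome had the lowest role medians, at -0.56 and -0.35. Polr1b was at 12.9 ± 1.35 CPM in translocation tumours 1 to 4 (SD, n = 4) and 20.6 ± 2.99 CPM across the Rosa26 group (SD, n = 6), giving a log2 fold change of -0.63 ± 0.19 with an adjusted p of 0.0885. Polr1b and Rrp1b were the 2 genes whose 4 translocation values all lay below the 6 Rosa26 values (4.04% of all genes were so in this direction). None lay wholly above (3.4%).

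Other tests of the same 10 tumours called a few of these genes. DESeq2 called 3 lower in the translocation tumours (14.2% of all genes called either way) and so did limma voom (12.8%). Both named Nolc1, Polr1b and Ncl, for which edgeR's adjusted p was 0.113, 0.0885 and 0.152. The levels of Nolc1 were 14.9 ± 4.89 and 27.2 ± 6.05 CPM, and those of Ncl 124 ± 22.3 and 207 ± 59.4 CPM (SD, n = 4 and 6). Leaving out Rosa26 tumour 2 as well made Dctpp1 pass in edgeR's test, at a log2 fold change of 1.25. Fbl, Nop56, Nop58 and Npm1, highest in tumour 5, had log2 fold changes of -0.26, -0.23, -0.28 and 0.00 without it, with SEs of 0.24, 0.24, 0.28 and 0.29.

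**Figure D4:**
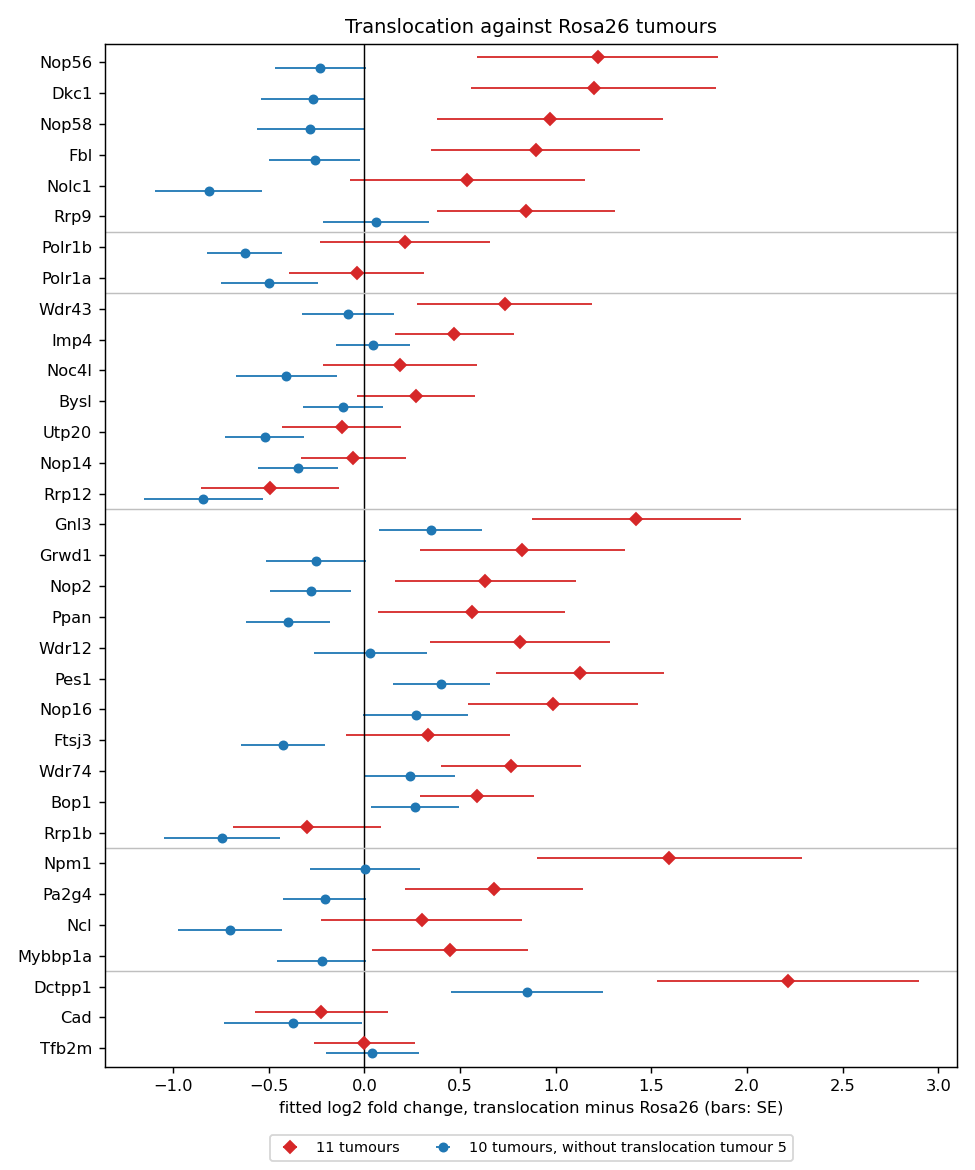
Fitted log2 fold changes of translocation over Rosa26 tumours, with SE as bars, for the 33 genes in order of role. Red diamonds use 11 tumours and blue circles 10 tumours, without translocation tumour 5. The red values have a median of 0.59 and the blue values one of -0.26.

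Of the 157 other genes of the pathway, 2 passed higher in the translocation tumours (1.14% of all genes) and none lower (1.56%). They were Rpap3, a subunit of the chaperone complex that builds snoRNPs (log2 fold change 1.55 ± 0.31, adjusted p 0.0283), and Rmrp, the RNA of RNase MRP, which cuts the precursor (1.93 ± 0.43, adjusted p 0.0395). Without translocation tumour 5 both passed again (1.45 ± 0.31 and 1.62 ± 0.41, adjusted p 0.0318 and 0.0483, where 1.68% of all genes passed higher and 2.59% lower), though with a further tumour left out Rpap3 passed in 6 of 10 fits and Rmrp in 1 of 10. Rpap3 was at 82.3, 31.5, 28.4, 47.8 and 65.0 CPM in translocation tumours 1 to 5 and at 13.997 to 25.6 CPM in the Rosa26 tumours, with no overlap. For Rmrp the groups overlapped, at 124.6, 41.2, 52.3, 50.3 and 144.6 CPM against 13.0 to 44.4 CPM. With all 11 tumours, the call of Rpap3 was lost on leaving out translocation tumour 1 or Rosa26 tumour 3, 4 or 6, and that of Rmrp on leaving out translocation tumour 1 or any Rosa26 tumour but 2. Neither passed when libraries were scaled by their totals alone. Mdn1, the giant ATPase that remodels large subunit precursors, passed lower without tumour 5 (-0.77 ± 0.18, adjusted p 0.0408), in 3 of 10 fits that left out a further tumour. In the same fit Uck2, a uridine-cytidine kinase, was lower (-1.81 ± 0.37, adjusted p 0.0287) and so was Mycl (-2.44 ± 0.61, adjusted p 0.0487). Their calls held in 4 and 1 of the 10 fits. Myc was at -1.43 ± 0.37 there, with an adjusted p of 0.0550.

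Tumours were compared with the single muscle library, which was assumed to vary as the tumours do. With 1 muscle library the filter on low counts asked for enough counts in only 1 library. It kept 22184 genes, against 17021 between genotypes. Genes seen in a single library, tumour or muscle, could thus pass, and their part in the median gene was not tested. The median gene was 0.70 log2 units higher in tumours with TMM scaling and 2.10 with library totals alone. The median of the 33 genes lay 1.38 below the median gene under both. Rescaling shifts all genes of a library nearly alike, so this distance could hardly change and is no check of the scaling. On the TMM scale 5 of 33 genes passed lower in tumours (at least 2-fold and an adjusted p of 0.05), against 11.4% of all genes, and none passed higher, against 5.25%. At an unadjusted p under 0.05 there were 7 (31.7% of all genes). DESeq2 added Cad as higher (13.4% of all genes), and limma voom called 14 lower (16.4%) and 1 higher (5.77%). Those 5 were Rrp12, Nop14, Wdr43, Bysl and Tfb2m, of which 4 belong to the small subunit processome. Rrp12 was at 4.87 to 16.4 CPM in all 11 tumours and 114 CPM in the muscle (log2 fold change -3.45 ± 0.43, adjusted p 0.000292). It also passed with library totals alone (-2.06, adjusted p 0.0156), where 2.62% of all genes passed lower and 15.8% higher. The other 4 did not pass there, at -1.20 for Nop14 (adjusted p 0.0923), -0.70 for Wdr43 (0.489), -0.44 for Bysl (0.511) and -0.62 for Tfb2m (0.372). Nop14 was at 11.8 to 29.1 CPM and 109 CPM in the muscle (-2.63 ± 0.36, adjusted p 0.000595). Tfb2m was at 5.42 to 9.31 CPM and 29.9 CPM in the muscle (-2.06 ± 0.37, adjusted p 0.00293). Bysl, a 40S assembly factor, was at 9.05 to 25.2 CPM and 43.9 CPM in the muscle (-1.84 ± 0.44, adjusted p 0.0141). Wdr43 was at 23.2 to 191 CPM and 241 CPM in the muscle (-2.13 ± 0.65, adjusted p 0.0412). Each of the 5 genes was lower in every tumour than in the muscle on the TMM scale. The other 4 passed with each tumour left out in turn, while the call of Wdr43 was lost without translocation tumour 1, 3 or 4 or Rosa26 tumour 2, 3, 4, 5 or 6.

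Cad lay on the other side, at 26.5 to 97.3 CPM in tumours and 13.8 CPM in the muscle. Its log2 fold change was 2.14 ± 0.71 with an adjusted p of 0.0590, and it passed without translocation tumour 5 (2.06 ± 0.68, adjusted p 0.0421), without translocation tumour 3 or without Rosa26 tumour 1, and with library totals alone (3.49, adjusted p 0.00858). Imp4 was the other gene above the muscle in all 11 tumours (0.95 ± 0.59) and passed with library totals alone (2.37, adjusted p 0.0427), followed in size by Fbl (0.87 ± 1.03) and Ppan (0.80 ± 0.91). For Fbl and Ppan translocation tumour 5 lay at 7.76 and 6.05 times the muscle, and both SEs exceed the values.

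Leaving out translocation tumour 5 raised the count from 5 to 19 of 33, with 18 lower (16.2% of all genes) and Cad higher (11.7%). The 18 included Polr1a and Polr1b, 5 large subunit genes, and Ncl, Mybbp1a and Pa2g4. The median of the 33 moved from -0.67 to -1.22. Ncl was at 103 to 281 CPM in the other 10 tumours, 739 CPM in tumour 5 and 512 CPM in the muscle. On the TMM scale tumour 5 thus lay on the opposite side of the muscle from the rest (log2 fold change -1.68 ± 0.37 without it, adjusted p 0.00653). With library totals alone, Rosa26 tumours 2, 3, 5 and 6 (223, 313, 341 and 254) also lay above the muscle (209) for Ncl. Its log2 fold change was then 0.24 with all 11 tumours. On the TMM scale the other 10 tumours all lay below the muscle for 25 of 33 genes (24.7% of all genes) and all above for 2 (24.8%), and tumour 5 lay above it for 26 (49.3%). With library totals alone the 10 tumours all lay below the muscle for 5 genes (8.5% of all genes), the same 5 that passed with TMM scaling, and all above for 7 (41%), while tumour 5 lay above for 30 (69.2%). Against the muscle the translocation tumours had 4 genes lower (8.46% of all genes) and the Rosa26 tumours 5 (10.5%). These comparisons share the muscle library.

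**Figure D5:**
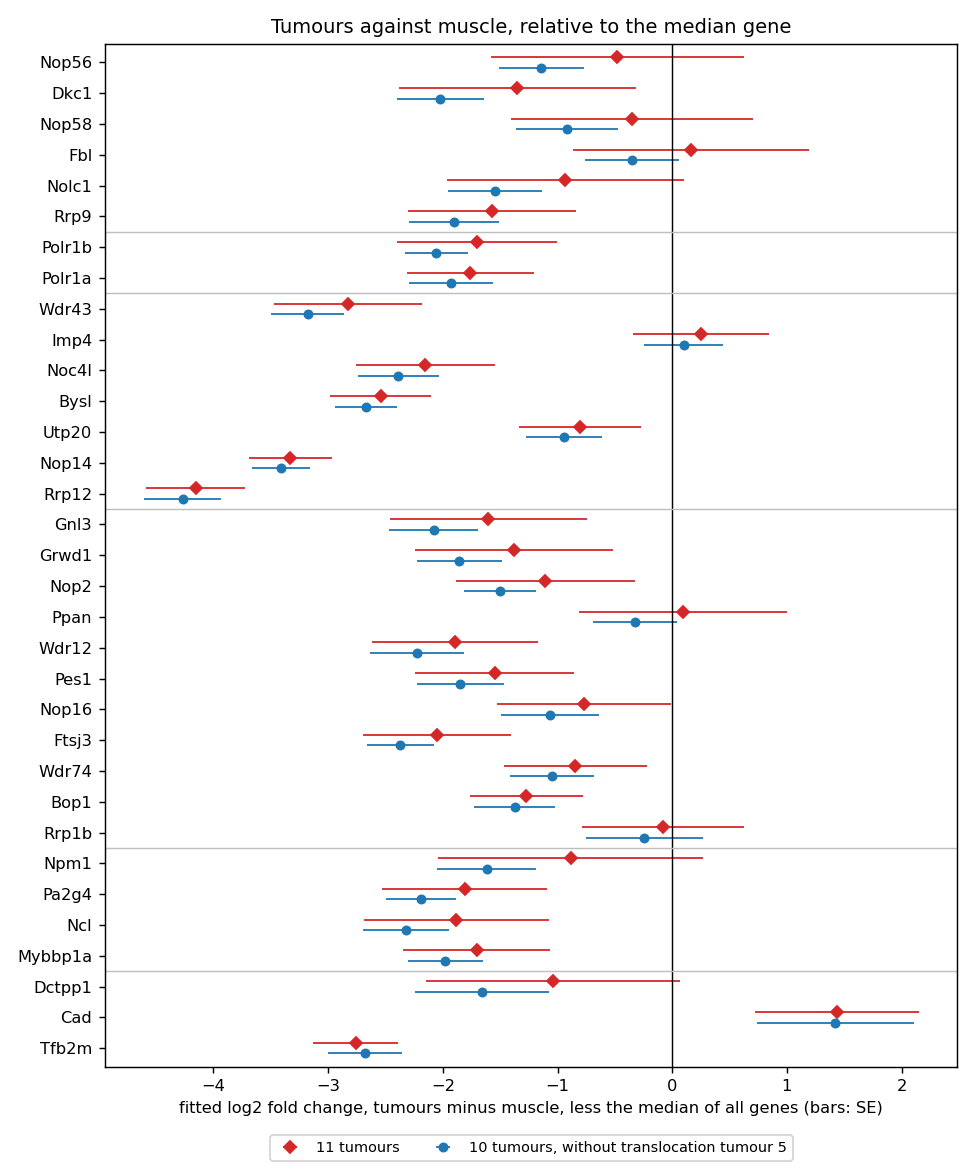
Fitted log2 fold changes of tumours over muscle, less the median of all genes, with SE as bars, for the 33 genes in order of role. Red diamonds use 11 tumours and blue circles 10, without translocation tumour 5. With 11 tumours 29 of 33 values lie below the median of the 22184 genes tested. With 10 tumours 31 lie below that of 21511 genes. Both sets can include genes seen in a single library.

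In the other genes of the pathway, 17 of 158 passed lower in tumours than in muscle on the TMM scale and none higher, with a median of -0.61, a share close to the 11.4% of all genes. With library totals alone none passed lower (2.62% of all genes) and 5 passed higher (15.8% of all genes). Gtpbp4, a GTPase of large subunit assembly, was at 30.8, 29.8, 37.6, 30.8 and 87.3 CPM in translocation tumours 1 to 5, 33.2 to 40.3 CPM across the Rosa26 group and 269 CPM in muscle (-2.72 ± 0.40, adjusted p 0.000816). With library totals its log2 fold change was -1.30. Ddx24, an RNA helicase (-2.29), and Ddx21, a nucleolar helicase (-2.24), followed, and Tsr1 (-1.97), Utp11 (-1.77) and Utp14a (-1.70) led the small subunit list. Polr1d, a subunit shared by RNA polymerases I and III, was at -1.78, and Cd3eap, a polymerase I subunit, at -1.97. In the list of nucleotide supply, 1 of 19 genes passed lower (11.4% of all genes) and 1 higher (5.25%). Adsl, a purine synthesis enzyme, was lower (-2.37) and Prps2, which makes the ribose donor of nucleotides, higher (4.54). With library totals Adsl did not pass (-0.94, adjusted p 0.259), while Prps2 did (5.96, adjusted p 0.0190). Prps2 was at 8.54 to 59.7 CPM in the tumours and 0.977 CPM in the muscle. Rpp14, a subunit of RNase MRP, was lower (-1.96). Mxd3, a MAX partner that opposes MYC, passed higher, at 3.93 to 50.8 CPM in the tumours and 0 counts in the muscle.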

How the data were processed

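The authors deposited unnormalized read counts as whole numbers, 1 row per Ensembl gene. Per the submitters' processing notes, STAR 2.7.5a, cutadapt, RSEM, featureCounts, DESeq2 and the build mm10 were used, in no stated role or order. The libraries were stranded and depleted of ribosomal RNA, per the labels' protocols. Annotation, strand setting and the handling of multiply matching reads were not given in the sources used here. Of the 33 genes, 19 share exon bases with another annotated gene. Symbols, positions and exon lengths came from GENCODE M21 (GRCm38).

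The genes and all lists were chosen with earlier results of these data known. Counts were fitted in R 4.3.3 with edgeR 4.0.16 (TMM, filterByExpr at a minimum count of 10, robust quasi-likelihood tests) over all genes, with Benjamini-Hochberg adjustment at 0.05 and, against muscle, a log2 fold change of at least 1 in size. Fold changes are translocation over Rosa26, or the mean of both tumour groups over muscle. Tested on simulated data, the fit recovered large known changes and missed many small ones. The simulation gave all genes the same spread and had no library far from the rest. It therefore does not show which changes the fit can find with translocation tumour 5 in it. Alternatives were DESeq2 1.42.0, voom of limma 3.58.1, other scalings and filters, each tumour left out, and Rosa26 tumours 5 and 6 summed. Library totals alone and the cAMP response element were added after the data were seen. Values by sample are given for the 3 largest rises and falls between genotypes, the 4 largest each way against muscle, and Polr1a, Polr1b, Ncl, Npm1, Fbl, Nop56, Nop58 and Cad. Other genes of the pathway are named at up to 3 per list and direction by adjusted p, with Myc, Mycn and Mycl. Paics was chosen after its values were seen. Since separate animals are not stated, each p-value rests on the spread of these samples, part of which may be technical.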

Additional observations from a re-analysis of the deposited data

Results flagged for a closer look

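In the translocation tumours, 1 library lay far from the other 4. For each gene the gap between the highest value and the next was divided by the whole range of the 5 values, and a share above 0.710 marked the highest tumour as far from the rest. Translocation tumour 5 was so marked for 27 of the 33 genes. The shares were Nop56 0.921, Nop58 0.872, Fbl 0.933, Dkc1 0.953, Nolc1 0.908, Rrp9 0.82, Polr1a 0.716, Polr1b 0.945, Wdr43 0.835, Utp20 0.743, Imp4 0.858, Bysl 0.774, Noc4l 0.768, Nop2 0.957, Nop16 0.877, Pes1 0.806, Wdr12 0.917, Wdr74 0.896, Gnl3 0.865, Ppan 0.93, Ftsj3 0.887, Grwd1 0.903, Ncl 0.92, Npm1 0.965, Mybbp1a 0.912, Pa2g4 0.925 and Dctpp1 0.929. For the summed level of the 33 genes the share was 0.954. Nop14, Rrp12, Rrp1b and Bop1 were also highest in it among the translocation tumours, below that limit, and Cad and Tfb2m were not.

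In the Rosa26 tumours, with a limit of 0.625 for 6 values, 3 genes had a library apart. Rosa26 tumour 4 was low for Wdr12 (0.647), at 6.12 CPM against 15.6 to 20.8 CPM in the other 5. Rosa26 tumour 2 was high for Dctpp1 (0.743), at 19.8 CPM against 4.20 to 8.21 CPM, and for Mybbp1a (0.625), at 139.9 CPM against 67.9 to 94.9 CPM. In all 66 gene and group pairs were examined and 30 were marked. Of those, 27 were the same library, translocation tumour 5, in genes chosen with their share in it known. The pairs are thus not independent, and the rate of about 1 in 20 that chance gives independent values is no yardstick for them.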

How the results depend on the processing

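No paired analysis was possible because replicates were numbered in accession order, and the 1 title number shared between groups, that of the muscle and translocation tumour 1, gives a single pair. The median log2 fold change of the 33 genes between genotypes, 0.59, fell below 0 with limma voom (-0.20), without translocation tumour 5 (-0.26) and without translocation tumours 2 and 5 and Rosa26 tumour 4 (-0.25). With 1 tumour left out at a time it ran from -0.26 to 0.78, and every fit but the one without tumour 5 kept it above 0. With library totals alone it was 0.50, where the median of all genes moved from 0.07 to -0.04. No alternative called a gene of the 33 with tumour 5 in the fit. Without tumour 5, DESeq2 and voom called 3 each, and leaving out 1 more tumour gave 0 to 1.

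Against muscle, the median of -0.67 turned to 0.72 with library totals alone and to 0.45 with totals that also leave out ribosomal repeat and skeletal muscle genes, and ran from -1.22 to -0.56 with 1 tumour left out. With library totals 3 genes passed in place of 5: Rrp12 lower, and Cad and Imp4 higher, so the calls of Nop14, Wdr43, Bysl and Tfb2m were lost. The count was 15 with voom and 19 without translocation tumours 2 and 5 and Rosa26 tumour 4, and 4 to 19 with 1 tumour left out. For the translocation tumours alone, 4 became 13 with voom, 19 without those 3 libraries, and 3 to 17 with 1 left out. For the Rosa26 tumours alone, the count of 5 was 2 with library totals (Rrp12 lower and Cad higher), 14 with voom, 18 without those 3, and 4 to 17. Calls over all genes moved too. For all tumours, 3686 of 22184 became 4918 with voom and 7037 of 21248 without those 3 libraries. For the translocation tumours alone, 2752 became 4312 and 6133, and for the Rosa26 tumours alone 3560 became 5480 and 7023. With 1 tumour left out, the calls over all genes ran from 2838 to 5987, 2079 to 5115 and 2523 to 6014. With library totals, 4035 passed for the Rosa26 tumours. The cause of these changes was not tested. The number of genes with an E-box fell from 7 to 2 in the shorter window.

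Over all genes, 460 passed between genotypes in edgeR's test, 2439 in DESeq2, 2677 with voom and 91 with Rosa26 tumours 5 and 6 summed. Without tumour 5, 744 passed, against 2484, 2237 and 339. For the other genes of the pathway, DESeq2 called 18 of 157 higher and 1 lower between genotypes, and voom 18 and 5, in place of 2 and 0. Over all 17021 genes, DESeq2 called 1236 higher and 1203 lower, and voom 1262 and 1415, in place of 194 and 266. Against muscle, the fit without tumour 5 called 60 of the other pathway genes lower (16.2% of all genes) in place of 17 (11.4%), and voom 50 (16.4%). Depth limits Noc4l and others in translocation tumour 2, where counts are lowest.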

Other observations

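By TPM, which scales counts by exon length, the order of the genes in translocation tumour 5 differed from that in the other tumours. Npm1 led in both, at a TPM of 1601 in tumour 5. Dctpp1 followed at 425, then Pa2g4 at 166 and Nop56 at 162, while over the other 10 tumours Nop56 had a median of 17.8 and ranked below Pes1 (25.8), Nop16 (23.3) and Bop1 (22.7). TPM values are read here for the order of genes, not for levels between libraries. For Npm1, TPM was 11.2 and 190 in translocation tumours 2 and 3, where TMM-scaled levels were 149.7 and 201.7 CPM.

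Of the 33 genes, 7 hold annotated small nucleolar RNA genes, 21 in all. Their counts reached at most 33 in any library, and 11 were at 0 in every library. How reads over both a host exon and a small RNA were counted is not given in the sources used here.

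Relative to the Rosa26 mean, the median of the 33 genes was 2.07 log2 units in translocation tumour 5 and -0.14, -0.34, -0.08 and -0.32 in translocation tumours 1 to 4. In the Rosa26 tumours it ran from -0.25 to 0.17.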
